A study of Mus musculus with 47 samples.

Results

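Livers of NZO/HlLtJ mice were compared with livers of CAST/EiJ mice on the control diet, labelled 10% fat with added fiber. The rule took every library titled with that diet and either strain, 15 of the 47 libraries in the series, and all genes of the count table, with sex as a covariate. NZO/HlLtJ was represented by 8 libraries, 4 from females and 4 from males, and CAST/EiJ by 7, 4 from females and 3 from males. Diet feeding began at 6 weeks of age and liver was taken at 15 weeks. NZO/HlLtJ, the New Zealand Obese mouse, is an inbred polygenic model of obesity and type 2 diabetes, and CAST/EiJ is an inbred, wild-derived strain of a different mouse subspecies. All libraries are labelled wild type with no treatment, so a strain here stands for a whole inbred genome and not for single alleles. Poly(A) RNA was sequenced from frozen liver. The series asks how diet acts on mouse strains that differ in their risk of diabetes, and the comparison here gives the strain difference on the control diet.

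The liver makes and exports fatty acids, cholesterol, bile acids and most plasma proteins, and it clears drugs and hormones through cytochrome P450, sulfotransferase and glucuronosyltransferase enzymes. Insulin acting on hepatocytes raises fatty acid synthesis and restrains glucose output, while leptin and growth hormone act through cytokine-type receptors. Resident macrophages, the Kupffer cells, and interferon signalling shape how the organ presents antigen and responds to infection. In bulk tissue a gene's level reflects both the cells present and the RNA in each, so fewer cells of a type and less RNA per cell cannot be told apart in any result given here.

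Library totals ran from 36643390 to 47180870 counts in NZO/HlLtJ and from 30585816 to 41029486 in CAST/EiJ. The hepatocyte genes Alb and Hnf4a were present in every library, with Alb at 63028 to 108908 CPM in NZO/HlLtJ and 37509 to 89800.1 CPM in CAST/EiJ, and Hnf4a at 618 to 842 CPM in NZO/HlLtJ and 581 to 837 CPM in CAST/EiJ. Sex-linked genes matched the labelled sex in all 15 libraries: Xist, which silences an X chromosome in females, had 782 to 1319.8 CPM in females and 0.298 to 4.21 CPM in males, and the Y-linked Kdm5d had 0 to 0.0951 CPM in females and 15.5 to 21.6 CPM in males. The first principal component held 59.5% of the variance. Correlations of log2 CPM were 0.977 to 0.989 within a strain and sex and 0.878 to 0.916 between strains. The labels do not say that libraries came from separate animals, and p-values then refer only to the spread among the samples, which may be partly technical. Markers of pancreatic acinar cells summed to 3.05 to 12.8 CPM in NZO/HlLtJ and 1.06 to 106 CPM in CAST/EiJ, where Cpa1, a pancreatic carboxypeptidase, had 0.0585, 9.12 and 0.073 CPM in the males and 0.285, 0.0274, 4.31 and 0 CPM in the females.

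Of 15570 genes tested, 51.5% differed between the strains (edgeR quasi-likelihood test, Benjamini-Hochberg adjusted p under 0.05, called below). NZO/HlLtJ was higher for 4083 genes (26.2%) and lower for 3936 (25.3%), and the median log2 fold change, NZO/HlLtJ over CAST/EiJ, was 0.0017. At least a 2-fold difference was met by 3011 called genes (19.3%), 1664 higher (10.7%) and 1347 lower (8.65%), and at least 8-fold by 400 higher and 324 lower genes. The lowest library of one strain lay above the highest of the other for 3050 genes (19.6%), among them 1800 of the 3011. The sign was the same in females and males for 2990 of the 3011 genes. These genes were chosen in the same libraries over both sexes together, so such agreement is largely built in. The numbers in the library identifiers fall into 3 runs, each with both strains: within them 2570, 1268 and 1066 genes were called higher and 2434, 1052 and 1024 lower in 6, 4 and 5 libraries, and with the run as a covariate in all 15 libraries 3946 were higher and 3762 lower.

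The difference was measured again in 16 libraries of the same strains on 44% fat, none of which enters the comparison above. There 59.8% of 15354 tested genes were called. Of the 2841 genes called at 2-fold on 10% fat that could be tested on 44% fat, 2666 (93.8%) were called in the same direction, 21 had the opposite sign and 1 was called in the opposite direction. Over both diets, the strain difference depended on diet for 22 of 16153 genes (0.136%), and for 0.399% of the genes called at 2-fold on 10% fat. E2f8, a repressor of the cell cycle that governs hepatocyte polyploidy, was among them: it stood at 4.69 to 16.2 CPM (median 8.07) in NZO/HlLtJ, against 1.2 to 3.45 CPM (median 2.27) in CAST/EiJ, and the groups did not overlap (log2 fold change 2.15 ± 0.24, adjusted p = 1.75e-06 on 10% fat, 0.24 on 44% fat, adjusted p = 0.0124 for the dependence on diet). C57BL/6J livers on 10% fat (8 libraries) lay nearer to NZO/HlLtJ than to CAST/EiJ for 2282 of the 3011 genes (75.8%), against 64.4% of all tested genes.

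**Figure D1:**
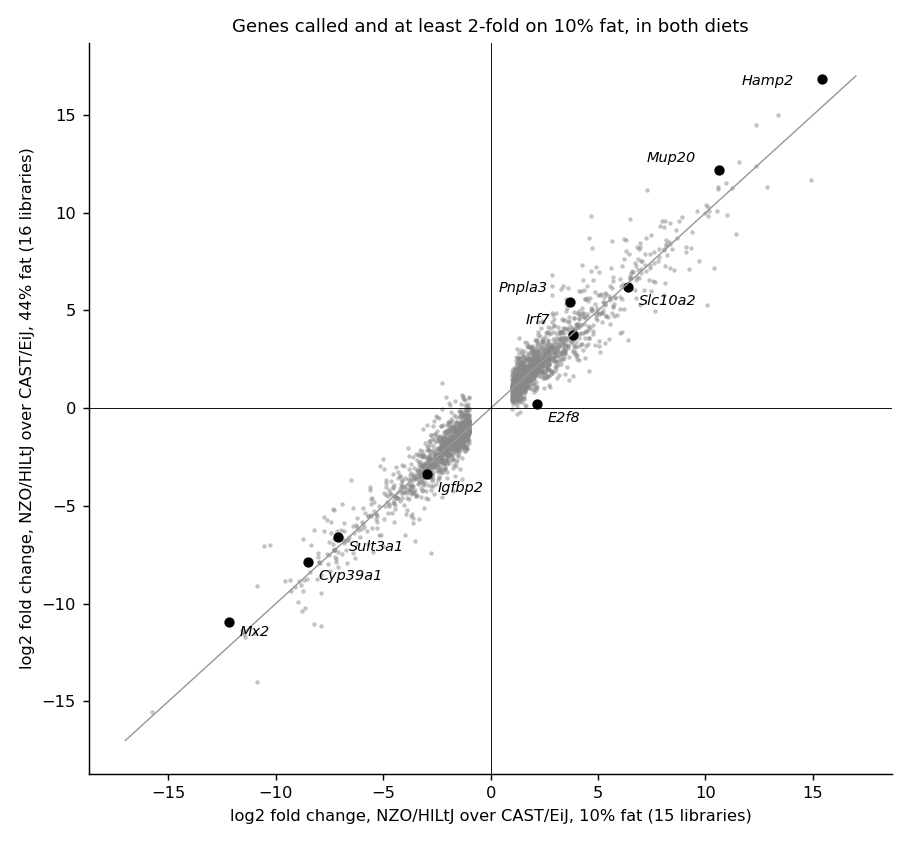
Log2 fold change, NZO/HlLtJ over CAST/EiJ, of the 2841 genes called at 2-fold or more on 10% fat and tested on both diets, with the 10% fat value on the horizontal axis and the 44% fat value on the vertical axis. The line marks equal values, and the empty band in the middle comes from the 2-fold rule on 10% fat. Named genes are black, and E2f8 lies off the line at 2.15 on 10% fat and 0.24 on 44% fat.

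Among the largest differences were genes that have near-identical copies elsewhere in the genome, and for these the deposited count of 1 gene could not be read alone. Rpl9 encodes a protein of the large ribosomal subunit and had 6.1 to 8.77 CPM (median 7.6) in NZO/HlLtJ, against 135 to 192 CPM (median 142) in CAST/EiJ. Its processed copy Rpl9-ps6 showed the mirror image, with 129 to 158 CPM (median 141) in NZO/HlLtJ, against 0 to 0.0608 CPM (median 0) in CAST/EiJ. The Rpl9 transcript and the Rpl9-ps6 transcript differed at 4 of 695 aligned bases. A stretch of 68 bases, shown because a read inside it can tell the genes apart only by the base in capitals, lies in exon 5 of Rpl9 at chr5:65389543-65389610 and in Rpl9-ps6 at chr19:32466226-32466293, both on the minus strand of GRCm38 in GENCODE M21.
Rpl9: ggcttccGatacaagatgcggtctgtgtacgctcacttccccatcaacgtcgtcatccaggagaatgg
Rpl9-ps6: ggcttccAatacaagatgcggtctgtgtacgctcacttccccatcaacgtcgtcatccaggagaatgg
With the 8 copies of Rpl9 in the table added together, the sum was 149.9 ± 10.3 CPM in NZO/HlLtJ and 149.6 ± 19.4 CPM in CAST/EiJ, a log2 fold change of 0.01 (adjusted p = 0.918). Rpl17 and Rpl19, also of the large subunit, gave the same picture. Rpl17 had 2.74 to 7.37 CPM in NZO/HlLtJ, against 166 to 233 CPM in CAST/EiJ, while its copy Rpl17-ps8 had 146 to 190.2 CPM in NZO/HlLtJ, against 0 to 1.12 CPM in CAST/EiJ. Rpl19 had 6.8 to 14.8 CPM in NZO/HlLtJ, against 175 to 233 CPM in CAST/EiJ. The log2 fold changes of the sums were -0.10 for Rpl17 (adjusted p = 0.309) and -0.15 for Rpl19 (adjusted p = 0.134).

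Mitochondrial sequence gave the same pattern. The mitochondrial gene mt-Co2, subunit 2 of cytochrome c oxidase, had 1568 to 2385 CPM (median 1838) in NZO/HlLtJ, against 5.53 to 8.6 CPM (median 6.41) in CAST/EiJ. Gm13341, a nuclear copy of it chosen for mention after its values were seen, had 0 to 0.0814 CPM (median 0.0221) in NZO/HlLtJ, against 569.8 to 2227 CPM (median 1325) in CAST/EiJ. The first 300 bases of each are shown because the genes differ in them only at the 5 bases in capitals, mt-Co2 at chrM:7013-7312 on the plus strand and Gm13341 at chr2:22587663-22587962 on the minus strand (GRCm38, GENCODE M21). Over their whole length, the transcripts align at 672 bases with 16 mismatches and 12 further bases in gaps.
mt-Co2: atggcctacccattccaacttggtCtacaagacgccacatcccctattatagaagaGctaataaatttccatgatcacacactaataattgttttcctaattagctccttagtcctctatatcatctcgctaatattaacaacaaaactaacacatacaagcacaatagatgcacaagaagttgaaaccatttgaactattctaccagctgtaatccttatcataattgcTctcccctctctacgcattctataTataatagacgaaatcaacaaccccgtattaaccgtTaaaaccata
Gm13341: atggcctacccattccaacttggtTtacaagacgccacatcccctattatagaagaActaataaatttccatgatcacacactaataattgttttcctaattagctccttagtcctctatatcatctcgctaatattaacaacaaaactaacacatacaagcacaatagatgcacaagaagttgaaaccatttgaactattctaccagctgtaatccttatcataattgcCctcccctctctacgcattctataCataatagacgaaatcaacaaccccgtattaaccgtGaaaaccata
Summed with a further copy, Gm28661, these 3 genes had 4499 ± 620.0 CPM in NZO/HlLtJ and 5546 ± 656 CPM in CAST/EiJ. The log2 fold change of the sum was -0.31 (adjusted p = 0.02), which reverses the sign of mt-Co2 alone. The lowest sums, 3481 CPM in NZO/HlLtJ and 4921 CPM in CAST/EiJ, exceeded the highest values of mt-Co2 and Gm13341. Gm28661 therefore held a large part of the sum in both strains. Cycs, the electron carrier cytochrome c, was called lower in NZO/HlLtJ (log2 fold change -1.60 ± 0.06, adjusted p = 2.46e-12), but the sum with its 3 copies was 179 ± 8.17 CPM in NZO/HlLtJ and 182 ± 21.4 CPM in CAST/EiJ. Whether sequence differences between the strains moved reads between copies was not tested.

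Genes that share at least 40% of the smaller gene's 31-base words in GENCODE M21 transcripts were therefore also summed into 1 feature, a step added after the data were seen. They are called near-identical copies here, although the limit also joins genes that share only a part of their sequence. Of the 3011 genes called at 2-fold, 462 (15.3%, against 10.3% of all tested genes) had such a copy in the table, and for 195 of these (42.2%) the sum was still called and at least 2-fold in the same direction. The other 2549 genes had none. The alpha-globin Hba-a1 lost its difference in the sum (6.78 alone, 0.18 summed, adjusted p = 0.698). The glucuronosyltransferase Ugt1a10 differed by -4.64 alone, and the sum of 9 Ugt1a genes by -0.13 (adjusted p = 0.231). That sum was 648 ± 46.4 CPM in NZO/HlLtJ and 720 ± 119 CPM in CAST/EiJ. Because it pools 9 genes, it does not show whether Ugt1a10 itself differed. Slc22a30, a transporter of the organic anion family, kept a smaller difference in the sum with Slc22a28 (6.81 alone, 1.13 summed, adjusted p = 0.00914). That difference depended on sex (adjusted p = 0.0241), at 1.97 in females (adjusted p = 6.21e-05) and 0.20 in males (adjusted p = 0.619).

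**Figure D2:**
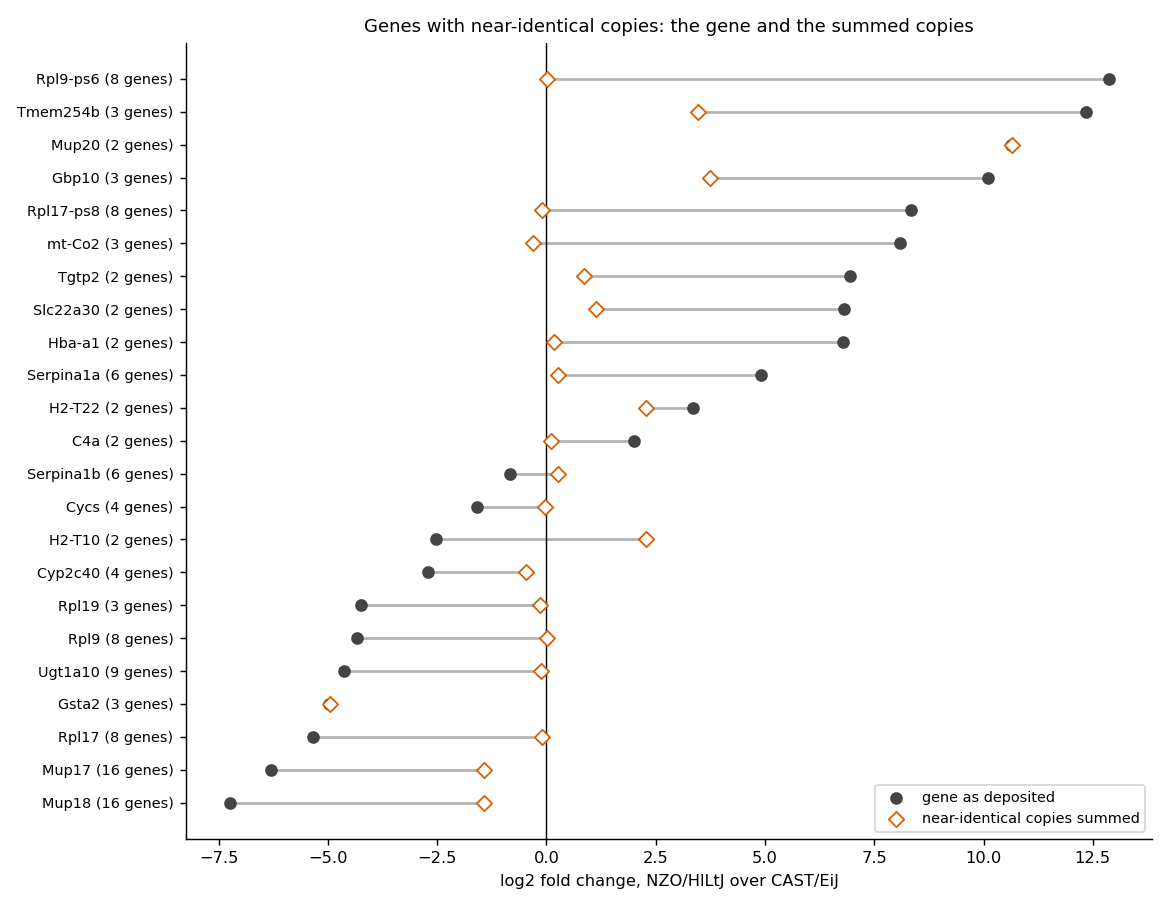
Log2 fold change, NZO/HlLtJ over CAST/EiJ, on the horizontal axis, of 23 genes grouped with others by the 40% limit on shared 31-base words. Dark circles show the gene as deposited and open diamonds the sum of its group, with the number of genes summed in parentheses. The sums of the ribosomal protein genes, mt-Co2, Hba-a1, C4a and Cycs lie near 0, whereas Gsta2, Mup20 and the Tmem254 genes keep differences beyond 2-fold.

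Several genes were near 0 in the livers of 1 strain and clearly measured in the other. In CAST/EiJ, 34 genes had at most 3 counts in each of the 7 libraries while every NZO/HlLtJ library had at least 1 CPM, and 21 genes were near 0 in NZO/HlLtJ by the same rule. Each gene of the deposited table has a value above 0 in at least 24 of the 47 libraries. Genes measured in 1 strain alone can therefore be missing, and the counts of 34 and 21 were not compared. The following have no near-identical copy in the table. Hamp2, a paralog of the iron hormone hepcidin, led them with 357 to 1107 CPM (median 552) in NZO/HlLtJ, against 0 to 0.0951 CPM (median 0) in CAST/EiJ, at least 7690-fold higher with CAST/EiJ set at 3 counts per library. The C57BL/6J median lay between, at 49.8 CPM. A4gnt, a glycosyltransferase best known from gastric mucus, had 22.1 to 87 CPM in NZO/HlLtJ, against 0 to 0.0634 CPM in CAST/EiJ, and C57BL/6J livers had a median of 0 CPM. Rarres1, a retinoid-responsive gene, had 20.02 to 49.9 CPM in NZO/HlLtJ, against 0 to 0.0951 CPM in CAST/EiJ. In the other direction the antiviral GTPase Mx2 had 0 to 0.0463 CPM in NZO/HlLtJ, against 25.1 to 56.8 CPM in CAST/EiJ. The tetraspanin Tspan10 and the amino acid transporter Slc38a11 were also near 0 in NZO/HlLtJ, with 5.56 to 8.27 CPM and 2.46 to 7.46 CPM in CAST/EiJ. None of these groups overlapped.

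Other leading genes had measurable expression in both strains. Camk1d, a calcium-dependent kinase whose locus is linked to human type 2 diabetes, had 85.7 to 172 CPM (median 156) in NZO/HlLtJ, against 0.76 to 3.3 CPM (median 2.38) in CAST/EiJ (log2 fold change 6.16 ± 0.27, adjusted p = 7.8e-11). Slc3a1, the heavy chain of the cystine transporter, had 57.5 to 153 CPM in NZO/HlLtJ, against 0.821 to 2.05 CPM in CAST/EiJ (log2 fold change 6.04 ± 0.24, adjusted p = 2.78e-11). The planar polarity cadherin Celsr1 had 36.2 to 68.6 CPM in NZO/HlLtJ, against 0.603 to 1.14 CPM in CAST/EiJ. For all 3 genes the strains did not overlap and C57BL/6J lay near NZO/HlLtJ, with medians of 147, 59.4 and 34 CPM. On the low side stood Abhd1, a hydrolase-fold protein (1.32 to 2.22 CPM in NZO/HlLtJ, against 42.5 to 60.8 CPM in CAST/EiJ). A1bg, a plasma glycoprotein, was far higher in females than in males of both strains, with 1941, 3147, 916 and 1789 CPM in NZO/HlLtJ females, against 18.9, 5.42, 7.23 and 9.2 CPM in CAST/EiJ females, and 1.39, 0.202, 1.03 and 8.06 CPM in NZO/HlLtJ males, against 0.0292, 0 and 0 CPM in CAST/EiJ males. The strains did not overlap within either sex (log2 fold change 7.59, adjusted p = 4.88e-06).

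**Figure D3:**
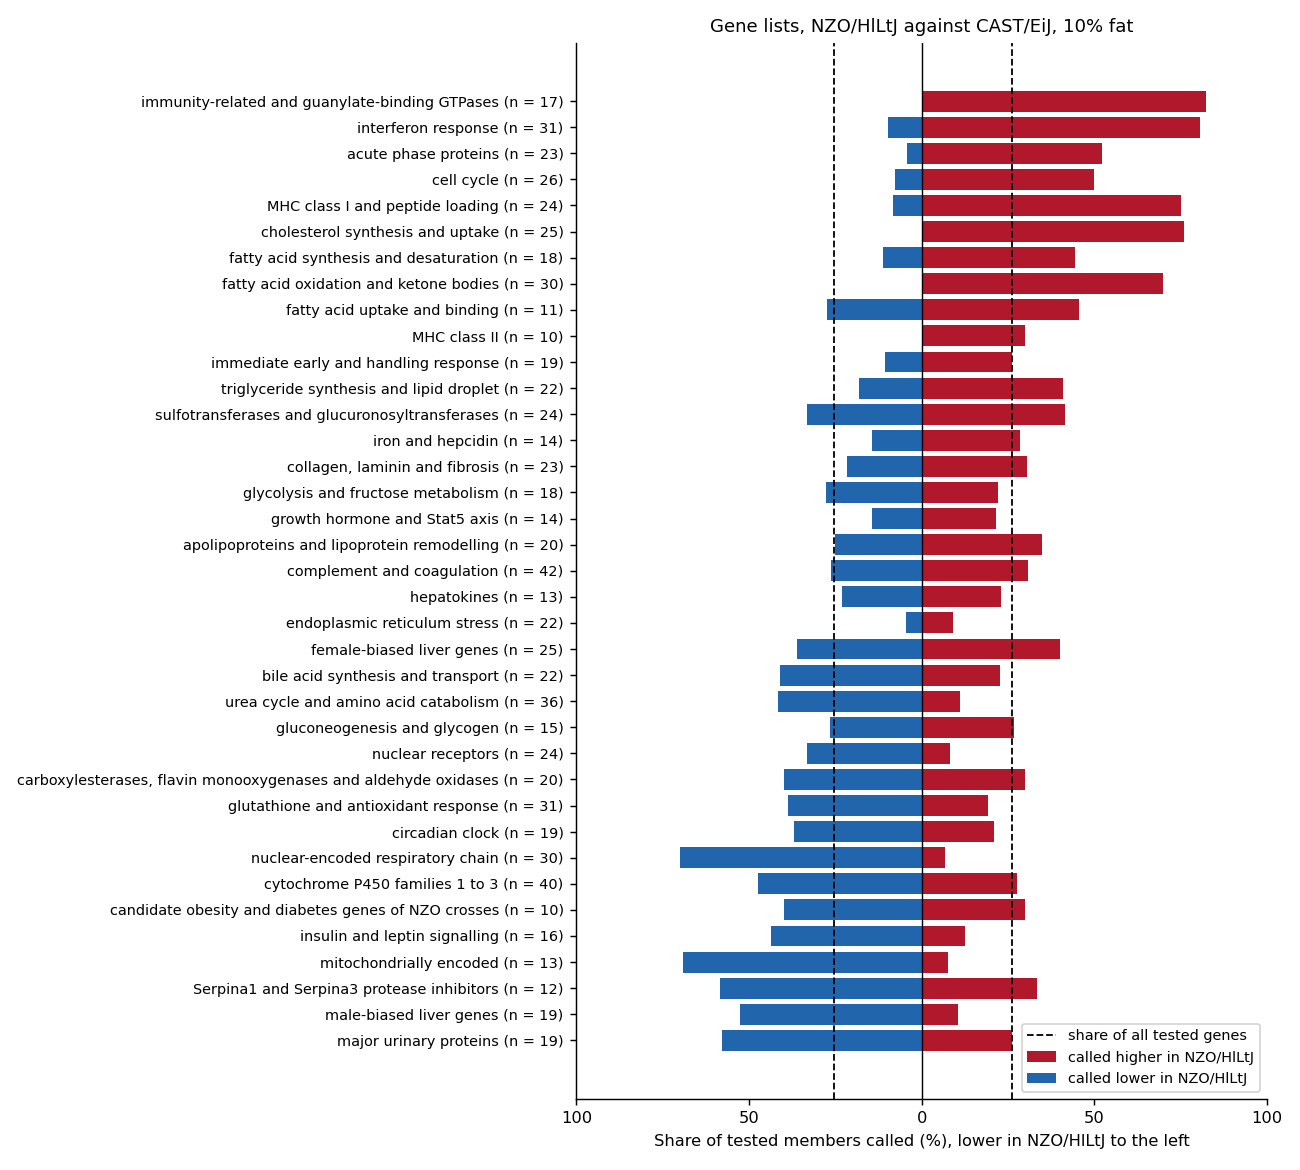
Share of the tested members of 37 gene lists that were called higher in NZO/HlLtJ (red, to the right) or lower in NZO/HlLtJ (blue, to the left), in percent, ordered by the list's median log2 fold change. Dashed lines mark the shares over all tested genes, 26.2% higher and 25.3% lower. The guanylate-binding GTPase and interferon lists reach furthest to the right.

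Several genes of fat storage were expressed more in NZO/HlLtJ. Of 22 genes for triglyceride synthesis and the lipid droplet, 9 were called higher (40.9%) and 4 lower (18.2%), with a median log2 fold change of 0.19. Of 18 genes for fatty acid synthesis and desaturation, 8 were higher (44.4%) and 2 lower (11.1%), with a median of 0.48. Over all tested genes, 26.2% were higher and 25.3% lower. The share called in either direction was 59.1% and 55.6% in the 2 lists, near the 51.5% of all genes. Pnpla3, a lipid-droplet protein whose human variant raises liver fat, had 31.5 to 173 CPM (median 95.1) in NZO/HlLtJ, against 0.729 to 22.9 CPM (median 5.29) in CAST/EiJ (log2 fold change 3.71 ± 0.77, adjusted p = 0.00124). The ranges did not overlap. On 44% fat its log2 fold change was 5.41. Pparg, the nuclear receptor that drives fat storage when raised in hepatocytes, had 2.75 to 6.97 CPM (median 3.33) in NZO/HlLtJ, against 0.175 to 0.849 CPM (median 0.347) in CAST/EiJ (log2 fold change 3.28 ± 0.29, adjusted p = 9.33e-08). Mogat1, an acyltransferase that makes diacylglycerol, had 0.859 to 5.3 CPM in NZO/HlLtJ, against 0 to 0.304 CPM in CAST/EiJ (log2 fold change 4.39 ± 0.63, adjusted p = 2.76e-05). Fitm1, which helps droplets form, had 2.28 to 14.1 CPM in NZO/HlLtJ and 0 counts in every CAST/EiJ library. The very low density lipoprotein receptor gene Vldlr had 9.43 to 38.1 CPM in NZO/HlLtJ, against 0.584 to 15.6 CPM in CAST/EiJ, and was called with overlapping groups (log2 fold change 2.46 ± 0.38, adjusted p = 0.0001).

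The enzymes of fatty acid synthesis differed less evenly. Acss2, which makes acetyl-CoA from acetate, had 249 to 774 CPM (median 434) in NZO/HlLtJ, against 83.9 to 299.5 CPM (median 135) in CAST/EiJ (log2 fold change 1.55 ± 0.28, adjusted p = 0.000337), and the elongase Elovl5 had 665 to 1779 CPM in NZO/HlLtJ, against 399 to 681 CPM in CAST/EiJ (log2 fold change 0.96 ± 0.20, adjusted p = 0.000698). Both pairs of groups overlapped. Mlxipl, which encodes the glucose-sensing factor ChREBP, went the other way, with 245 to 341 CPM (median 296) in NZO/HlLtJ, against 375 to 636 CPM (median 536) in CAST/EiJ (log2 fold change -0.79 ± 0.12, adjusted p = 2.97e-05). The hormone-sensitive lipase gene Lipe was also lower (log2 fold change -0.73 ± 0.12, adjusted p = 7.69e-05). Fasn, fatty acid synthase, did not pass the test on 10% fat, with 759 to 6108 CPM (median 2428) in NZO/HlLtJ and 474 to 1956 CPM (median 1412) in CAST/EiJ (log2 fold change 0.99 ± 0.46, adjusted p = 0.0889). By sex, in a fit with near-identical copies summed, Fasn was called in males (1.91, adjusted p = 0.0241) and not in females (0.23, adjusted p = 0.746). Its dependence on sex did not pass the test (adjusted p = 0.287). Car3, a carbonic anhydrase of liver and fat, had 839.7 to 2319.9 CPM (median 1478) in NZO/HlLtJ, against 30.3 to 556 CPM (median 158) in CAST/EiJ, without overlap (log2 fold change 3.17 ± 0.36, adjusted p = 5.29e-06). The adipocyte genes Adipoq and Plin1 were too low in all libraries to be tested.

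Cholesterol synthesis was the metabolic list with the largest share of higher genes. Of its 25 tested members, 19 (76%, against 26.2% of all genes) were higher in NZO/HlLtJ, 12 of them at least 2-fold, and 0 were lower, and the median log2 fold change was 0.90. Pmvk, phosphomevalonate kinase, had 24.9 to 59.7 CPM (median 47.8) in NZO/HlLtJ, against 3.89 to 17.1 CPM (median 6.48) in CAST/EiJ (log2 fold change 2.52 ± 0.32, adjusted p = 1.44e-05). The groups did not overlap. Mvd, the decarboxylase that follows it, had 16.4 to 35.2 CPM (median 31.4) in NZO/HlLtJ, against 1.97 to 8.74 CPM (median 6.05) in CAST/EiJ (log2 fold change 2.26 ± 0.22, adjusted p = 6.1e-07). Hsd17b7, which acts late in the pathway, had 76 to 102 CPM in NZO/HlLtJ, against 29.4 to 39.95 CPM in CAST/EiJ (log2 fold change 1.31 ± 0.09, adjusted p = 2.22e-09). The strain difference depended on sex for 5 members, among them Cyp51, lanosterol demethylase, at 2.74 in females and 1.42 in males (adjusted p = 0.0174).

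Fatty acid oxidation genes were also higher, by smaller amounts. Of 30 genes for oxidation and ketone bodies, 21 (70%, against 26.2% of all genes) were called higher and 0 lower (against 25.3%). At least 2-fold was reached by 5, and the median log2 fold change was 0.41. Vnn1, a pantetheinase that is a standard target of PPAR-alpha, had 16.6 to 133 CPM (median 63.2) in NZO/HlLtJ, against 0.517 to 5.81 CPM (median 3.04) in CAST/EiJ (log2 fold change 4.93 ± 0.30, adjusted p = 5.87e-09). Decr1, needed to oxidize polyunsaturated fatty acids, had 120.3 to 198 CPM (median 156) in NZO/HlLtJ, against 71.2 to 94.7 CPM (median 78.4) in CAST/EiJ (log2 fold change 0.98 ± 0.08, adjusted p = 2.96e-08). The isomerase Eci1 and the short-chain dehydrogenase Acads followed at log2 fold changes of 0.89 and 0.63. None of these 4 genes overlapped between the strains. Fgf21, a fasting and stress hormone secreted by the liver, had 3.42 to 8.98 CPM (median 4.47) in NZO/HlLtJ, against 0.122 to 1.53 CPM (median 0.9) in CAST/EiJ (log2 fold change 2.72 ± 0.45, adjusted p = 0.000153).

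Of 16 genes of insulin and leptin action, 2 were higher and 7 lower (43.8%, against 25.3% of all genes), with a median log2 fold change of -0.38. Lepr, the leptin receptor, had 4.26 to 21.8 CPM (median 12.1) in NZO/HlLtJ, against 8.33 to 263 CPM (median 95.6) in CAST/EiJ, with overlapping groups (log2 fold change -2.36 ± 0.43, adjusted p = 0.000473). By sex its level was 15, 21.8, 14.2 and 16.5 CPM in NZO/HlLtJ females, against 119, 263, 154 and 95.6 CPM in CAST/EiJ females, and 6.41, 4.93, 4.26 and 9.99 CPM in NZO/HlLtJ males, against 10.4, 8.33 and 25.4 CPM in CAST/EiJ males. Females of the strains did not overlap, whereas males did, and the dependence on sex did not pass the test (adjusted p = 0.0921). Igfbp2, an IGF-binding protein that leptin raises in mouse liver, had 29.5 to 102 CPM (median 50.4) in NZO/HlLtJ, against 274 to 669 CPM (median 462) in CAST/EiJ (log2 fold change -2.96 ± 0.21, adjusted p = 1.48e-08). The groups did not overlap. The insulin receptor substrate gene Irs1 was lower (log2 fold change -0.77 ± 0.19, adjusted p = 0.00348), and so was Akt2, the main hepatic Akt kinase (log2 fold change -0.37 ± 0.06, adjusted p = 6.01e-05). Insr, the insulin receptor gene, was higher, with 147 to 177 CPM in NZO/HlLtJ, against 101 to 145 CPM in CAST/EiJ (log2 fold change 0.51 ± 0.08, adjusted p = 4.11e-05).

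Counts of glucose genes called higher and lower differed between the sexes, a difference that was tested for single genes and not for the lists. Of 18 genes for glycolysis and fructose use, 4 were higher and 5 lower in all 15 libraries, but 0 were higher and 6 lower in females alone and 7 higher and 3 lower in males alone. Of 15 for gluconeogenesis and glycogen, 4 were higher and 4 lower in all libraries, 2 higher and 8 lower in females alone, and 6 higher and 0 lower in males alone. Over all tested genes, 21.2% were higher and 18.7% lower in females alone, and 18.9% higher and 17.7% lower in males alone. The dependence on sex was called for 4 genes of each list. The count of lower glycolysis genes was 3 to 5 with 1 library left out, and 3 without any 1 of 8 libraries. Ppp1r3c, which targets a phosphatase to glycogen, had 62.9 to 108 CPM in NZO/HlLtJ, against 16.5 to 52.7 CPM in CAST/EiJ, without overlap (log2 fold change 1.25 ± 0.21, adjusted p = 0.000172). Trib3, an inhibitor of Akt in liver, was lower (log2 fold change -1.90 ± 0.33, adjusted p = 0.000247). Among 10 candidate genes from crosses with NZO mice, 3 were higher and 4 lower (30% and 40%, against 26.2% and 25.3% of all genes). Zfp69, a zinc-finger gene proposed from such crosses, did not pass the test, with 0.758 to 1.73 CPM in NZO/HlLtJ and 0.81 to 2.67 CPM in CAST/EiJ (log2 fold change -0.50 ± 0.26, adjusted p = 0.121). By sex, in a fit with near-identical copies summed, Zfp69 was called in males (-1.03, adjusted p = 0.0268) and not in females (-0.04, adjusted p = 0.924). Its dependence on sex did not pass the test (adjusted p = 0.293).

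**Figure D4:**
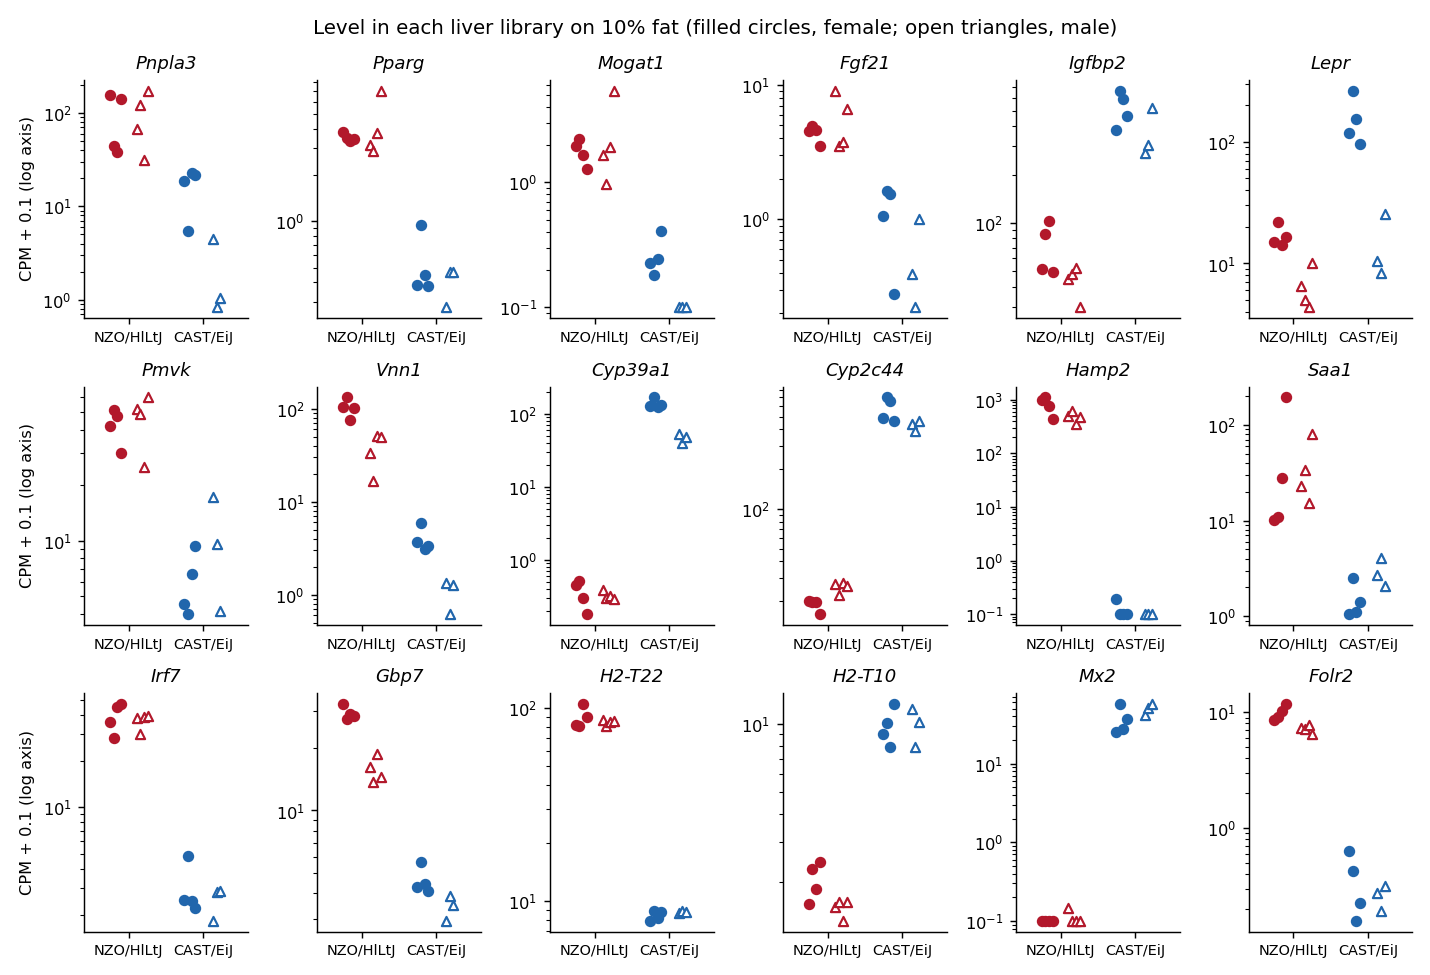
Level of 18 genes in each library, as TMM-scaled CPM plus 0.1 on a log axis, with NZO/HlLtJ left and CAST/EiJ right in each panel, females as filled circles and males as open triangles. The strains are apart for Pnpla3, Pparg, Igfbp2, Pmvk and Irf7, while for Lepr the CAST/EiJ males, at 10.4, 8.33 and 25.4 CPM, reach down into the NZO/HlLtJ range.

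Interferon-response genes were higher in NZO/HlLtJ for most of the list: 25 of 31 tested (80.6%, against 26.2% of all genes), 22 of them at least 2-fold, with 3 lower and a median log2 fold change of 1.48. The immunity-related and guanylate-binding GTPases, which attack vacuoles holding intracellular parasites, were higher for 14 of 17 (82.4%) and lower for 0, with a median of 1.66. MHC class I and peptide-loading genes, which display cytosolic peptides to T cells, were higher for 18 of 24 (75%) and lower for 2, with a median of 0.92. With near-identical copies summed, 23 of 29 features were higher and 3 lower for interferon response, 13 of 15 higher for the GTPases, and 17 of 23 higher and 1 lower for MHC class I. Of 10 MHC class II genes, 3 were higher and 0 lower.

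Irf7, the master regulator of interferon induction, had 28 to 46.6 CPM (median 38.1) in NZO/HlLtJ, against 1.73 to 4.74 CPM (median 2.41) in CAST/EiJ (log2 fold change 3.82 ± 0.19, adjusted p = 1.57e-10). Ifi44, an interferon-induced gene, had 5.09 to 9.97 CPM in NZO/HlLtJ, against 0.0289 to 0.222 CPM in CAST/EiJ (log2 fold change 5.72 ± 0.24, adjusted p = 7.35e-12), and Isg15, a ubiquitin-like antiviral protein, had 4.21 to 10.0 CPM in NZO/HlLtJ, against 0.468 to 1.12 CPM in CAST/EiJ (log2 fold change 3.19 ± 0.24, adjusted p = 1.09e-08). None of these overlapped. The 2 Mx genes, neighbours that encode antiviral GTPases, went opposite ways: Mx1 had 6.6 to 15.8 CPM in NZO/HlLtJ, against 0.936 to 2.6 CPM in CAST/EiJ (log2 fold change 2.72 ± 0.17, adjusted p = 1.15e-09), while Mx2 was near 0 in NZO/HlLtJ as given above. In C57BL/6J the medians were 1.36 CPM for Mx1 and 5.37 CPM for Mx2.

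Among the GTPases, Iigp1 had 260.1 to 399.9 CPM (median 339.9) in NZO/HlLtJ, against 0 to 0.0317 CPM (median 0) in CAST/EiJ, at least 4010-fold higher, and Gbp10 had 13.6 to 39 CPM in NZO/HlLtJ, against 0 to 0.0868 CPM in CAST/EiJ. The sum of Gbp10 and the 2 entries named Gbp6 still differed, at 3.75 on the log2 scale (adjusted p = 1.12e-09). Gbp7 had 13.5 to 32.4 CPM (median 23) in NZO/HlLtJ, against 2.84 to 5.53 CPM (median 3.98) in CAST/EiJ, without overlap (log2 fold change 2.48 ± 0.11, adjusted p = 2.3e-11). Tgtp2 had 2.31 to 8.78 CPM in NZO/HlLtJ, against 0 to 0.0973 CPM in CAST/EiJ, but its near-identical neighbour Tgtp1 did not pass the test (log2 fold change 0.18 ± 0.28, adjusted p = 0.617), and their sum differed by 0.86 (adjusted p = 0.0184). The difference of the sum depended on sex (adjusted p = 0.00241), at 1.68 in females (adjusted p = 5.31e-06) and -0.05 in males (adjusted p = 0.867). Igtp, another family member, had 39.6 to 66.4 CPM in NZO/HlLtJ, against 5.94 to 17.9 CPM in CAST/EiJ (log2 fold change 2.23 ± 0.16, adjusted p = 1.1e-08).

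The class I gene H2-T22 had 80.5 to 105 CPM (median 85.3) in NZO/HlLtJ, against 7.77 to 8.77 CPM (median 8.61) in CAST/EiJ (log2 fold change 3.36 ± 0.07, adjusted p = 6.12e-16), while its close relative H2-T10 had 1.25 to 2.36 CPM (median 1.54) in NZO/HlLtJ, against 7.81 to 12.1 CPM (median 10.0) in CAST/EiJ (log2 fold change -2.52 ± 0.14, adjusted p = 2.61e-10). Their sum was higher in NZO/HlLtJ (88.6 ± 8.05 CPM, against 18.2 ± 1.91 CPM in CAST/EiJ, log2 fold change 2.28, adjusted p = 8.1e-13), the direction of H2-T22. The classical genes H2-D1 and H2-K1, highly polymorphic between strains, had log2 fold changes of 1.65 and 1.02. H2-Q10, a secreted class I protein of hepatocytes, had 2896 to 3931 CPM (median 3215) in NZO/HlLtJ, against 581 to 835 CPM (median 705) in CAST/EiJ (log2 fold change 2.20 ± 0.10, adjusted p = 1.17e-11). The immunoproteasome subunit gene Psmb8 and the peptide transporter gene Tap1 were also higher (log2 fold change 1.27 ± 0.16, adjusted p = 8.35e-06 for Psmb8 and log2 fold change 0.89 ± 0.17, adjusted p = 0.000378 for Tap1), by more in females than in males (adjusted p = 0.0171 and 0.00691 for the dependence on sex). In males, in a fit with near-identical copies summed, Psmb8 was called (0.76, adjusted p = 0.00107) and Tap1 was not (0.33, adjusted p = 0.0904).

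Interferon-stimulated response elements were looked for as GAAA, any 2 bases and GAAA again, on either strand, in RefSeq promoters of GRCm38.p6, which run from 250 bases before to 50 bases after a gene's start. The letters occurred in 1131 of 32851 promoters (3.44%) and in 412 of 10873 tested genes with a promoter (3.79%). They occurred in 12 of 21 interferon-response genes with a promoter, in 9 of 10 GTPase genes in 4 of 19 MHC class I genes and in 0 of 6 MHC class II genes. A match is a description of the sequence of C57BL/6J, and the alleles of NZO/HlLtJ and CAST/EiJ were not read. The promoters of Gbp7 (chr3:142530086-142530385, plus strand), Tgtp2 (chr11:49064163-49064462, minus strand) and H2-T22 (chr17:36042693-36042992, minus strand) are shown as examples of GTPase and class I genes that hold a match, which is in capitals.
Gbp7: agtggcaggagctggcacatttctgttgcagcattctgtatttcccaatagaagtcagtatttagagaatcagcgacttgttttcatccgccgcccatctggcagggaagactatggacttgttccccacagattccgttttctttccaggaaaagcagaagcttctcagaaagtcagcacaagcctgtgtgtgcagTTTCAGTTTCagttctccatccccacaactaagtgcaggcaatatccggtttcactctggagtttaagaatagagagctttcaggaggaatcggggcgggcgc
Tgtp2: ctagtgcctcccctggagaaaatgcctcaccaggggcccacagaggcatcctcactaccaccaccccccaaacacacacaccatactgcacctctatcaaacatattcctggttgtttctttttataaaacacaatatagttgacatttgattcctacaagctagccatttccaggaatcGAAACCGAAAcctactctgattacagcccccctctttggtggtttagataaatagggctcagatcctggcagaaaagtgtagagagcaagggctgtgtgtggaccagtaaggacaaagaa
H2-T22: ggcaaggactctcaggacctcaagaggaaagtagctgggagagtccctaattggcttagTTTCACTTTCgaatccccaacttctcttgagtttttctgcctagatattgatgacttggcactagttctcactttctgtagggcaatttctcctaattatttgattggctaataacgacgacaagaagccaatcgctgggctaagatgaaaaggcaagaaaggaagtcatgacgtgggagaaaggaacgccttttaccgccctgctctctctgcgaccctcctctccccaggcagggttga
Counted from the gene's start, the match began at position -53 in Gbp7, -70 in Tgtp2 and -191 in H2-T22.

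Markers of several immune cell types differed between the same libraries. Of 12 Kupffer cell markers, 10 were higher in NZO/HlLtJ and 0 lower, against 26.2% higher and 25.3% lower over all tested genes (median log2 fold change 0.85; 5 higher in females alone and 11 in males alone), with a summed level of 298 to 607 CPM, against 143 to 410 CPM in CAST/EiJ. Folr2, a folate receptor of resident macrophages, had 6.44 to 11.6 CPM (median 8) in NZO/HlLtJ, against 0.0579 to 0.539 CPM (median 0.175) in CAST/EiJ (log2 fold change 5.30 ± 0.26, adjusted p = 4.95e-11), and Adgre1, which encodes F4/80, had 12 to 36 CPM in NZO/HlLtJ, against 3.98 to 10.7 CPM in CAST/EiJ (log2 fold change 1.61 ± 0.19, adjusted p = 3.32e-06). Neither overlapped. Clec4f, the lectin that marks Kupffer cells alone, did not pass the test, with 53 to 89.1 CPM in NZO/HlLtJ and 40.4 to 92.2 CPM in CAST/EiJ (log2 fold change 0.21 ± 0.10, adjusted p = 0.0948). Of 11 markers of monocyte-derived and lipid-associated macrophages, 9 were higher and 0 lower, summing to 39.9 to 92.9 CPM, against 34.8 to 48.5 CPM in CAST/EiJ. Ly6c2 and Cx3cr1, monocyte genes, differed by 4.37 and 2.34 on the log2 scale, and Lgals3, galectin-3, by 1.49. The 7 tested markers of NK and innate lymphoid cells were all higher, at a sum of 1.51 to 3.67 CPM in NZO/HlLtJ, against 0.152 to 0.929 CPM in CAST/EiJ. Without the 2 CAST/EiJ libraries with acinar RNA, 4 of the 7 were called. Of 9 T cell markers 8 were higher and 1 lower, at a sum of 2.09 to 5.47 CPM in NZO/HlLtJ, against 1.5 to 8.61 CPM in CAST/EiJ. Of 7 neutrophil markers 6 were lower and 1 higher, at a sum of 2.46 to 7 CPM in NZO/HlLtJ, against 2.28 to 10 CPM in CAST/EiJ, but 2 of the 7 were lower without CAST/EiJ female replicate 2, 4 without the acinar libraries, 1 in females alone and 0 in males alone. Of 12 markers of B and plasma cells 3 were higher (25%) and 0 lower, and of 7 dendritic cell markers 1 was higher and 0 lower. The part of these cells in the interferon and MHC results was not tested.

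Acute phase proteins, which the liver secretes in inflammation, were higher for 12 of 23 genes (52.2%, against 26.2% of all genes). They were lower for 1 (4.35%, against 25.3%). At least 2-fold higher were 9 of the 23, against 10.7% of all genes, and the median log2 fold change was 1.05. The share called in either direction was 56.5%, near the 51.5% of all genes. Saa1, serum amyloid A, ranged widely in NZO/HlLtJ, with 9.91 to 193 CPM (median 25.1), against 0.951 to 3.92 CPM (median 1.95) in CAST/EiJ (log2 fold change 4.60 ± 0.79, adjusted p = 0.000294). The lowest NZO/HlLtJ library still lay above the highest of CAST/EiJ. Apcs, serum amyloid P, had 175 to 449 CPM (median 215) in NZO/HlLtJ, against 25.1 to 61.6 CPM (median 41.4) in CAST/EiJ (log2 fold change 2.68 ± 0.16, adjusted p = 6.55e-10), and Saa4, a constitutive form, had 137 to 366 CPM in NZO/HlLtJ, against 19.3 to 59 CPM in CAST/EiJ (log2 fold change 2.66 ± 0.23, adjusted p = 1.68e-07). Steap4, a metalloreductase, was higher as well (log2 fold change 1.27 ± 0.15, adjusted p = 2.84e-06). Haptoglobin, Hp, was the member that was lower (log2 fold change -0.59 ± 0.22, adjusted p = 0.0311), a call that 4 of the 15 libraries decided: its adjusted p was 0.0537 to 0.0645 with each of them left out. Hamp, the hepcidin gene that blocks iron export, had 105 to 572 CPM (median 199) in NZO/HlLtJ, against 0 to 34.6 CPM (median 6.79) in CAST/EiJ (log2 fold change 4.59 ± 1.08, adjusted p = 0.00293). Hamp and Hamp2 share 33.7% of 31-base words, under the limit for summing, and how reads of the pair were divided was not tested.

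Of 22 bile acid genes, 5 were higher (22.7%) and 9 lower (40.9%), against 26.2% and 25.3% of all genes (median log2 fold change -0.08). In females alone 3 were higher and 11 lower, in males alone 8 higher and 6 lower, and the dependence on sex was called for 7 of the 22. Over all tested genes, 21.2% were higher and 18.7% lower in females alone, 18.9% higher and 17.7% lower in males alone, and 3.26% depended on sex. Cyp39a1, an oxysterol hydroxylase, had 0.0787 to 0.416 CPM (median 0.21) in NZO/HlLtJ, against 39.6 to 167 CPM (median 124) in CAST/EiJ (log2 fold change -8.51 ± 0.25, adjusted p = 5.94e-13). The C57BL/6J median was 54.4 CPM. Abcb11, the canalicular bile salt export pump, had 436 to 555 CPM (median 482) in NZO/HlLtJ, against 973 to 1161 CPM (median 1103) in CAST/EiJ (log2 fold change -1.14 ± 0.07, adjusted p = 9.05e-10). Neither gene overlapped. Cyp7a1, the rate-limiting enzyme of bile acid synthesis, was lower with overlapping groups, with 50.2 to 199 CPM (median 88.5) in NZO/HlLtJ, against 129 to 505 CPM (median 196) in CAST/EiJ (log2 fold change -1.25 ± 0.36, adjusted p = 0.0104), and Cyp7b1 of the alternative pathway was lower as well (log2 fold change -3.18 ± 0.23, adjusted p = 2.07e-08). Slc10a2, the apical transporter that recovers bile acids in ileum and bile ducts, had 10.0 to 34.8 CPM (median 20.6) in NZO/HlLtJ, against 0.0608 to 0.548 CPM (median 0.178) in CAST/EiJ (log2 fold change 6.38 ± 0.40, adjusted p = 5.99e-09). Its strain difference depended on sex, at 5.34 in females and 8.28 in males (adjusted p = 0.0106). In lipoprotein metabolism, 7 genes were higher and 5 lower of 20 (35% and 25%, against 26.2% and 25.3% of all genes). Pltp, phospholipid transfer protein, was higher (log2 fold change 2.67 ± 0.21, adjusted p = 6.3e-08), and Scarb1, the HDL receptor gene, was lower, with 72.9 to 112 CPM in NZO/HlLtJ, against 135 to 282 CPM in CAST/EiJ (log2 fold change -1.21 ± 0.14, adjusted p = 1.39e-06). Fetub, a secreted fetuin, was lower too (log2 fold change -1.42 ± 0.11, adjusted p = 2.12e-08).

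Drug-metabolizing families split in both directions, with large differences each way. Of 40 cytochrome P450 genes of families 1 to 3, 11 were higher (27.5%) and 19 lower (47.5%), against 26.2% and 25.3% of all genes, 23 of the 30 by at least 2-fold. Cyp2c44 had 15.8 to 27.4 CPM (median 21.2) in NZO/HlLtJ, against 387 to 700.0 CPM (median 466) in CAST/EiJ (log2 fold change -4.54 ± 0.16, adjusted p = 1.07e-12), and the C57BL/6J median was 326 CPM. Cyp3a25 had 203 to 308 CPM in NZO/HlLtJ, against 1778 to 2575 CPM in CAST/EiJ (log2 fold change -3.14 ± 0.12, adjusted p = 2.23e-12). Cyp2c38 was the opposite case at 64.6 to 209 CPM in NZO/HlLtJ, against 0.699 to 9.1 CPM in CAST/EiJ (log2 fold change 5.57 ± 0.38, adjusted p = 3.21e-08). The strains did not overlap for any of the 3. Of 31 glutathione and antioxidant genes, 6 were higher (19.4%) and 12 lower (38.7%). Gsta2, a glutathione transferase inducible through Nrf2, had 1.71 to 5.56 CPM in NZO/HlLtJ, against 63.2 to 166 CPM in CAST/EiJ, and its difference held when summed with Gsta1 and a further copy (-4.96, adjusted p = 4.05e-08). Gstm2 was lower (log2 fold change -3.97 ± 0.24, adjusted p = 3.57e-09) and Gstm7 higher (log2 fold change 1.22 ± 0.11, adjusted p = 1.64e-07).

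Conjugating enzymes counted 10 higher and 8 lower of 24 (41.7% and 33.3%, against 26.2% and 25.3% of all genes). Ugt3a2, a glycosyltransferase that uses sugars other than glucuronic acid, had 323 to 363 CPM (median 339) in NZO/HlLtJ, against 20.5 to 26.8 CPM (median 23.8) in CAST/EiJ (log2 fold change 3.84 ± 0.07, adjusted p = 2.75e-16), with narrow ranges in both strains. Sult1b1, a thyroid hormone sulfotransferase, was higher (log2 fold change 3.28 ± 0.20, adjusted p = 2.55e-09). Of 20 carboxylesterase, flavin monooxygenase and aldehyde oxidase genes, 6 were higher (30%) and 8 lower (40%). The esterase Ces1e had 141 to 337 CPM in NZO/HlLtJ, against 15 to 29.2 CPM in CAST/EiJ, whereas Ces2b had 0.0197 to 2.93 CPM in NZO/HlLtJ, against 116 to 221 CPM in CAST/EiJ. In C57BL/6J the median of Ces2b was 0.0502 CPM.

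Major urinary proteins, which carry pheromones, showed the lowest median of any pathway list, -2.12. Of 19 genes, 5 were higher (26.3%) and 11 lower (57.9%), against 26.2% and 25.3% of all genes. Mup18 had 0.416 to 2.75 CPM (median 1.58) in NZO/HlLtJ, against 71.5 to 578 CPM (median 129) in CAST/EiJ, without overlap. Mup17 had 4.44, 5.02, 6.46 and 9.9 CPM in NZO/HlLtJ females, against 422, 205, 622 and 90.4 CPM in CAST/EiJ females, and 194, 171, 267 and 218 CPM in NZO/HlLtJ males, against 28518, 27031 and 24839 CPM in CAST/EiJ males. Within each sex the strains did not overlap for Mup17. These genes are near-identical, and the sum of 16 of them was 7714 ± 6294 CPM in NZO/HlLtJ and 24130.3 ± 25505 CPM in CAST/EiJ, a log2 fold change of -1.43 (adjusted p = 3.33e-06) instead of -6.31 for Mup17 alone. With copies summed the list came to 5 features, 2 higher and 1 lower, with a median of 1.01, so the sign of its median depends on how the copies are counted. Mup20, the male pheromone darcin, shares sequence with the pseudogene Mup-ps19 alone by the same limit, and it was higher in NZO/HlLtJ, with 3.59, 5.07, 9.22 and 4.8 CPM in females and 385, 298, 359 and 199.7 CPM in males, against 0 to 0.174 CPM in CAST/EiJ libraries (log2 fold change 10.63 alone and 10.64 summed). The Serpina1 genes, which encode alpha-1-antitrypsin, also share sequence: Serpina1a and Serpina1c were higher (4.91 and 3.86), Serpina1b lower (-0.83), and the sum of 6 genes was 23152 ± 7220.4 CPM in NZO/HlLtJ and 18649 ± 6725 CPM in CAST/EiJ (log2 fold change 0.27, adjusted p = 0.0436).

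The strain difference depended on sex for 507 genes (3.26%), with the larger absolute log2 fold change in females for 215 and in males for 292. The count was 480 with near-identical copies summed, 301 without the CAST/EiJ male replicate 2 and 199 without both CAST/EiJ libraries with acinar RNA. The signs were opposite in the sexes for 246, and 65 of these were called in each sex. Sult3a1, a sulfotransferase made mainly by female mouse liver, had one of the largest such differences. NZO/HlLtJ females had 187, 178, 159 and 209 CPM, against 1892, 1475, 1808 and 1461 CPM in CAST/EiJ females, and NZO/HlLtJ males had 0.208, 0, 0.0542 and 0.53 CPM, against 1666, 1689 and 1539.8 CPM in CAST/EiJ males. CAST/EiJ males were at the level of CAST/EiJ females, and NZO/HlLtJ males were near 0 (log2 fold change -3.18 in females and -12.99 in males, adjusted p = 2.28e-07 for the dependence on sex). Cyp2c40, a female-biased arachidonic acid hydroxylase in mouse, had 743, 765, 876 and 792 CPM in NZO/HlLtJ females, against 785, 543, 579.6 and 394 CPM in CAST/EiJ females, and 10.3, 5.66, 6.51 and 13.5 CPM in NZO/HlLtJ males, against 648, 628 and 645 CPM in CAST/EiJ males. At this copy the NZO/HlLtJ males were low. Its near-identical neighbour Cyp2c69 followed the same pattern, at -0.58 in females and -8.34 in males (adjusted p = 4.94e-06). In the sum of the 4 near-identical genes of this group the drop was much smaller, with 1929.8 to 2151 CPM in NZO/HlLtJ females, against 1338 to 3290.4 CPM in CAST/EiJ females, and 809.7 to 1099.8 CPM in NZO/HlLtJ males, against 1535 to 1629 CPM in CAST/EiJ males. The NZO/HlLtJ males remained the lowest group. The strain difference of the sum was called in males (-0.75, adjusted p = 0.00807) and not in females (-0.21, adjusted p = 0.396). For the sum the dependence on sex did not pass the test (adjusted p = 0.329), and the log2 fold change over both sexes was -0.46 (adjusted p = 0.018).

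BC089597, a gene the annotation leaves without a descriptive name, was low in the same group, with 9.63, 7.03, 7.59 and 5.67 CPM in NZO/HlLtJ males, against 67.7, 53.5 and 48 CPM in CAST/EiJ males, and 101, 109, 153 and 85.6 CPM in NZO/HlLtJ females, against 91.5, 72.1, 84.4 and 91.4 CPM in CAST/EiJ females (adjusted p = 4.82e-06). C4a, the sex-limited complement protein of mice, had 519, 660.0, 446 and 498 CPM in NZO/HlLtJ males, against 346, 367 and 378 CPM in CAST/EiJ males, and 51.3, 45.5, 56.2 and 82.7 CPM in NZO/HlLtJ females, against 5.67, 4.52, 6.05 and 5.93 CPM in CAST/EiJ females. Males of both strains were high, and the strain difference was 3.41 in females and 0.55 in males (adjusted p = 4.82e-06). Over both sexes, its sum with the copy C4b differed by 0.11 (adjusted p = 0.441), and for that sum the dependence on sex did not pass the test (adjusted p = 0.591). The drug exporter gene Abcb1b was called in opposite directions, at 2.02 in females and -1.32 in males (adjusted p = 2.73e-06), with 17.9, 17.9, 20.5 and 21.2 CPM in NZO/HlLtJ females, against 5.71, 3.64, 5.15 and 4.67 CPM in CAST/EiJ females, and 18.7, 23.8, 21.7 and 34.8 CPM in NZO/HlLtJ males, against 57.6, 74.6 and 54 CPM in CAST/EiJ males. Cyp4a14, a fatty acid hydroxylase, had 55.8, 19.8, 175 and 106 CPM in NZO/HlLtJ males, against 0.0292, 0 and 0.17 CPM in CAST/EiJ males, while in females the strains differed by 3.34 on the log2 scale (adjusted p = 0.0285 for the dependence on sex). Of 19 male-biased liver genes, 2 were higher in NZO/HlLtJ (10.5%) and 10 lower (52.6%). Of 25 female-biased genes, 10 were higher (40%) and 9 lower (36%), against 26.2% and 25.3% of all tested genes. The dependence on sex was called for 10 of the 19 and 6 of the 25, against 3.26% of all tested genes. The difference between these lists was not tested.

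**Figure D5:**
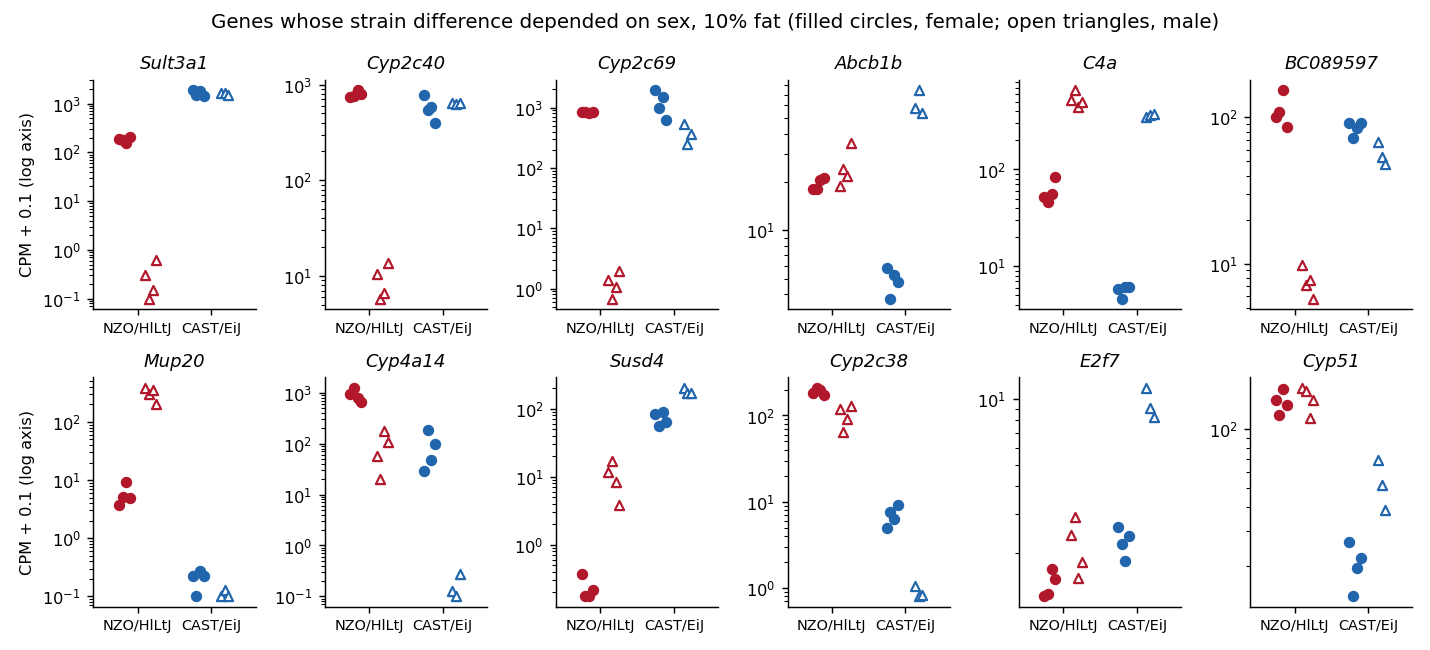
Level of 12 genes whose strain difference depended on sex in each library, as TMM-scaled CPM plus 0.1 on a log axis, with NZO/HlLtJ left and CAST/EiJ right and females as filled circles and males as open triangles. For BC089597 and the single copies Cyp2c40 and Cyp2c69 the NZO/HlLtJ males alone are low. For Sult3a1 the NZO/HlLtJ males are near 0, and the NZO/HlLtJ females also lie below the CAST/EiJ females (log2 fold change -3.18). The sum of Cyp2c40, Cyp2c69 and their copies (not plotted) was at least 809.7 CPM in every NZO/HlLtJ library. For Abcb1b the CAST/EiJ females are low and the CAST/EiJ males high.

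Many genes of the mitochondrial respiratory chain were lower in NZO/HlLtJ by small amounts. Of 30 nuclear respiratory chain genes, 21 (70%, against 25.3% of all genes) were called lower and 2 higher, with 1 of the lower genes past 2-fold and a median log2 fold change of -0.29. Atp5b, the catalytic beta subunit of ATP synthase, had 792 to 1009 CPM (median 967) in NZO/HlLtJ, against 1277 to 1545 CPM (median 1347) in CAST/EiJ (log2 fold change -0.55 ± 0.07, adjusted p = 6.02e-06), and Cox5b, of cytochrome c oxidase, had 61.6 to 88.2 CPM in NZO/HlLtJ, against 103 to 138 CPM in CAST/EiJ (log2 fold change -0.60 ± 0.08, adjusted p = 7.39e-06). Neither overlapped. Summed with its copy Gm11273, however, Cox5b differed by -0.35 (adjusted p = 0.00189). The summed groups did overlap, at 71.7 to 105 CPM in NZO/HlLtJ and 103 to 138 CPM in CAST/EiJ, and the sum was not called in males (adjusted p = 0.0861). The member past 2-fold was Cycs, whose sum with its copies had a log2 fold change of -0.04 (adjusted p = 0.659). In females alone 21 genes of this list were lower, and in males alone 9, against 18.7% and 17.7% of all tested genes. Of 13 mitochondrially encoded genes, 9 were lower and 1, mt-Co2, higher, and with copies summed 10 were lower and 0 higher. The mitochondrial share of all counts was 3.83% to 5.82% in NZO/HlLtJ and 5.88% to 7.26% in CAST/EiJ, so the strains did not overlap. mt-Nd2, of complex I, had 1587 to 2392 CPM in NZO/HlLtJ, against 4133 to 5901 CPM in CAST/EiJ (log2 fold change -1.16 ± 0.09, adjusted p = 2.67e-08). mt-Atp6 differed by -0.97 alone and by -0.50 with its nuclear copy (adjusted p = 0.000246).

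Amino acid breakdown and the urea cycle were lower for 15 of 36 genes (41.7%, against 25.3% of all genes) and higher for 4 (11.1%, against 26.2%). At least 2-fold lower were 2 of them, and the median log2 fold change was -0.09. In females alone 4 were higher and 18 lower, against 21.2% and 18.7% of all tested genes. In males alone 8 were higher and 7 lower, against 18.9% and 17.7%. Slc25a15, the mitochondrial ornithine carrier, had 308 to 468 CPM in NZO/HlLtJ, against 542 to 860.5 CPM in CAST/EiJ (log2 fold change -0.89 ± 0.11, adjusted p = 3.91e-06). Bckdhb, of the branched-chain keto acid dehydrogenase, differed by -0.71 (adjusted p = 6.06e-07). Neither overlapped. Gldc, of the glycine cleavage system, was higher (log2 fold change 0.72 ± 0.09, adjusted p = 6.15e-06).

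Clock genes were lower for 7 of 19 (36.8%, against 25.3% of all genes) and higher for 4 (21.1%, against 26.2%). Nr1d1 and Nr1d2, which encode the repressors REV-ERB alpha and beta, had 30.9 to 109 CPM and 28.7 to 81.7 CPM in NZO/HlLtJ, against 130.4 to 221 CPM and 82 to 156 CPM in CAST/EiJ (log2 fold change -1.42 ± 0.24, adjusted p = 0.000206 and log2 fold change -1.14 ± 0.24, adjusted p = 0.00104), while Arntl, which encodes the activator BMAL1 that they repress, was higher (log2 fold change 1.06 ± 0.28, adjusted p = 0.00509). In females alone 9 clock genes were lower, and in males alone 1, against 18.7% and 17.7% of all tested genes. The labels used here give no time of day, and its part in these values was not tested. Cell cycle genes were higher for 13 of 26 (50%) and lower for 2, with a median log2 fold change of 1.00. In females alone 18 were higher, and in males alone 3, against 21.2% and 18.9% of all tested genes, while the dependence on sex was called for 1 of the 26. Cdk1, the mitotic kinase, had 0.569 to 2.12 CPM in NZO/HlLtJ, against 0.0585 to 0.56 CPM in CAST/EiJ (log2 fold change 1.90 ± 0.41, adjusted p = 0.000952), and Aurka had 1.09 to 2.72 CPM in NZO/HlLtJ, against 0.468 to 1 CPM in CAST/EiJ (log2 fold change 1.48 ± 0.22, adjusted p = 2.31e-05). The groups did not overlap for either, with little between them for Cdk1. Cdkn1a, the cell cycle inhibitor p21, was higher with overlap, at 2.85 to 93.1 CPM (median 42.4) in NZO/HlLtJ, against 0.81 to 17.2 CPM (median 2.37) in CAST/EiJ (log2 fold change 2.96 ± 0.75, adjusted p = 0.00497). Endoplasmic reticulum stress genes had the lowest share of calls among the 37 pathway lists, with 2 of 22 higher and 1 lower (13.6% called, against 51.5% of all genes). Igf1, the growth factor that growth hormone induces in liver, was slightly higher (755 ± 86.5 CPM, against 601 ± 101 CPM in CAST/EiJ, SD, n = 8 and 7, log2 fold change 0.34 ± 0.10, adjusted p = 0.0117).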

How the data were processed

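Poly(A) RNA of liver was measured by sequencing in 47 libraries, of which the 15 of NZO/HlLtJ and CAST/EiJ on 10% fat were compared. The deposited table holds expected counts per gene, and 20.3% of its values are not whole (tolerance 1e-06). A second table holds variance-stabilized values on a log2 scale, made by the authors with DESeq2, and the build is GRCm38, per the submitters' processing notes. Which aligner, counting tool, strand setting and annotation release were used, and whether reads met strain-specific sequence, is not given in the sources used here. Each gene listed in the deposited table has a value above 0 in at least 24 of the 47 libraries.

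Deposited expected counts were first rounded to whole numbers, then scaled by TMM. The filter filterByExpr kept 15570 of 20320 genes. edgeR 4.0.16 (R 4.3.3) fitted sex and strain with its robust quasi-likelihood test (12 residual degrees of freedom), and p-values were adjusted over all tested genes by Benjamini-Hochberg, with an adjusted p under 0.05 called. Errors after ± are standard errors for log2 fold changes and SDs for CPM (n = 8 and 7). Interactions of strain with sex (15 libraries) and with diet (31 libraries) were fitted the same way. CPM values are counts divided by the TMM-scaled library total, on the usual CPM scale, and levels of different genes were not compared. No 2 libraries of a group agreed within sampling noise (chi-square per gene of at least 23.8). The steps were tested on simulated data.

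The 53 gene lists, their members and the comparison were chosen with earlier results of these data known. Named genes were the 12 highest and 12 lowest log2 fold changes, up to 4 called genes per list with the smallest p, the 6 smallest p for strain by sex, the 6 highest near 0 in each strain and 11 fixed genes, 1 of which, Ifi202b, is not in the table used here. The highest, lowest and sex-dependent genes needed a mean log2 CPM of at least 3. Alb, Hnf4a, Gm13341, Fasn, Irs1, Isg15, Igtp, Tgtp1, H2-K1, Psmb8, Tap1, Clec4f, Hp and Arntl were named after their values were seen. Some genes that the rule names are not reported here. Alternatives were DESeq2 1.42.0, limma 3.58.1 on the deposited log2 values, other filters and scalings, sexes and identifier runs apart, all 47 libraries in 1 fit, and each library left out.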

Additional observations from a re-analysis of the deposited data

Results flagged for a closer look

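The 128 named genes were examined in each strain, in groups of 7 or 8 libraries. In 27 groups 1 library stood apart from the others by Dixon's test at the 95% level, and chance alone flags about 1 in 20 groups. NZO/HlLtJ male replicate 4 was the highest library of its strain for 7 genes: Pparg (6.97 CPM), Mogat1 (5.3 CPM), Fasn (6110 CPM), Pltp (136 CPM), Gstm2 (10.8 CPM), Abcb1b (34.8 CPM) and Tspan10 (0.053 CPM). Each of its called genes among these was called without that library too. Other NZO/HlLtJ libraries stood apart for Slc3a1 (153 CPM), Saa1 (193 CPM), H2-T22 (105 CPM), Lgals3 (8.99 CPM), Fetub (545 CPM), Cyp7a1 (199 CPM), Ces2b (2.93 CPM), Gm13341 (0.0814 CPM) and Mx2 (0.0463 CPM), each as the highest, and for mt-Nd2 (1590 CPM) as the lowest.

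CAST/EiJ female replicate 2 was the highest of its strain for Rpl9 (192 CPM), Rpl17 (233 CPM), Pparg (0.849 CPM) and Irf7 (4.74 CPM). CAST/EiJ male replicate 1 was the highest for Pmvk (17.1 CPM), Acss2 (300 CPM) and Cox5b (138 CPM), and female replicate 3 for Trib3 (26.8 CPM). For Hamp2 (0.0951 CPM) and Tmem254b (0.0761 CPM) a single CAST/EiJ library had any count.

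The strain difference depended on sex or diet for 22 named genes. In females minus males the log2 fold change was greater for Sult3a1 (9.81), Cyp2c69 (7.76), Cyp2c40 (6.62), Abcb1b (3.34), BC089597 (3.32), C4a (2.86), Ugt1a10 (1.91), Tgtp1 (1.81), E2f7 (1.5), Cyp51 (1.32), Tap1 (1.05) and Psmb8 (0.96). It was smaller for Mup20 (-8.91), Cyp4a14 (-6.85), Susd4 (-4.86), Slc10a2 (-2.94), Cyp2c38 (-2.20), Ces1e (-1.27), Sult1b1 (-1.18), Cyp2c44 (-0.87) and Cyp3a25 (-0.75). E2f8 differed by -1.88 between 44% and 10% fat. For Cyp2c40 and Cyp2c69, and for C4a, the dependence on sex did not pass the test in the sum with their near-identical copies (adjusted p = 0.329 and 0.591, edgeR).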

How the results depend on the processing

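With 1 library left out in turn, 3846 to 4009 genes were called higher and 3729 to 3969 lower, 1620 to 1678 and 1307 to 1364 of them by at least 2-fold, and strain by sex was called for 301 to 686. RLE scaling and the filter of 1 CPM in 4 libraries left the direction and the call of all 128 named genes as they were, and DESeq2 those of 125 of 127, with the other 2 newly called. The filter of 1 CPM gave 855 genes lower by 2-fold, and limma on the deposited log2 values, which compress low counts, 588 higher and 511 lower. Identifier run 1 alone gave 2570 higher and 2434 lower, run 2 1268 and 1052, and run 3 1066 and 1024, of which 835 and 769 by 2-fold, with fewer libraries in each. Strain by sex was called for 1054 genes with DESeq2, 778 in the fit of all 47 libraries, 313 with the run as covariate and 199 without the CAST/EiJ libraries with Cpa1 above 1 CPM, an alternative chosen after seeing the data. The cause was not tested.

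Summing copies reversed mt-Co2 (-0.31), Rpl9 (0.010), Rpl17-ps8 (-0.10), H2-T10 (2.28) and Serpina1b (0.27). In females alone Cyp2c40 (0.46) and BC089597 (0.40) changed sign, and in males alone Abcb1b (-1.31) and Tgtp1 (-0.76). In run 2 alone Cyp2c40 (0.62), BC089597 (0.72), Zfp69 (0.94) and Clec4f (-0.089) did so, in run 3 Abcb1b (-0.92) and Tgtp1 (-0.71), in run 1 Abcb1b (-0.24), and without the sex term Abcb1b (-0.41). The call for Hp was lost without any 1 of 4 libraries. No paired analysis was possible because the labels give no replicate numbers. With 3 CAST/EiJ males, sex-dependent results rest on the fewest libraries.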
